A study of Mus musculus with 8 samples.

Results

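The imprinted growth genes examined here are 10 genes chosen by symbol: Plagl1, Dlk1, Peg3, Mest, Ndn and Sgce, which are expressed mainly from the paternal allele, and H19, Meg3, Grb10 and Phlda2, which are expressed mainly from the maternal allele. All 10 were found on the primary chromosomes, among 52778 rows of the deposited table. RNA was sequenced from ventricles of mouse embryos at embryonic day 11.5. The 4 knockout libraries (cKO) are labelled as cardiomyocyte-specific deletion of Rps19bp1, from Rps19bp1 fl/fl embryos that also carry Xmlc2-Cre +/−, and the 4 control libraries are labelled only as control, without a statement of which floxed or Cre alleles they carry. The genotype field reads C57BL/6 WT for all 8, and the extraction text describes cortical neurons, although tissue and titles name the heart. The labels also differ on the libraries, which are described both as depleted of ribosomal RNA and as made with a stranded mRNA kit, so how noncoding RNA without a poly(A) tail was captured is not known. The Cre acts in cardiomyocytes, so RNA from every other cell of the ventricle is measured alongside. Whether a library is 1 embryo or a pool, and which embryos shared a litter, is not given in the sources used here. Reads of all 8 libraries carry the same batch label.

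Genomic imprinting leaves a gene active on the chromosome from only 1 parent, through DNA methylation set in the germ line and kept in the embryo. Imprinted genes lie in domains in which neighbours of opposite parental origin share control elements. Many of them set embryonic growth: Igf2, Dlk1 and Mest promote it, while Grb10, Cdkn1c, Phlda2 and H19 limit it. Plagl1 encodes a zinc finger transcription factor that is known to act on other genes of this network. Several of these genes fall in level after birth as growth slows.

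Values are TPM, a relative transcript abundance in which reads are divided by transcript length and each library is scaled to the same total. Levels can therefore be compared between genes, but depth is not known. Of 15541 rows with a mean of at least 1 TPM, limma called 994 at a Benjamini-Hochberg adjusted p under 0.05, 336 higher and 658 lower in cKO, which is 6.4% of tested rows. The direction of these calls depended on scaling, and 383 were higher and 380 lower after quantile normalization. Leaving out single libraries gave between 388 and 936 calls. Rps19bp1 itself stood at 14.96 ± 3.14 TPM in cKO and 39.9 ± 3.93 TPM in control (SD, n = 4), with a difference of -1.37 on the log2(TPM + 1) scale (SE 0.127, limma adjusted p = 0.000508). Cardiomyocyte markers were abundant, with a median of 1030 to 1152 TPM over 26 genes in the 8 libraries, and the median of 16 neuronal markers lay between 0.215 and 0.408 TPM.

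Promoter sequences are shown for the 3 members called in the comparison and for Dlk1, which shares its domain with Meg3. RefSeq windows of 300 bases on GRCm38.p6, from 250 bases before to 50 after a start site, were found for 8 of 10 members, and not for Sgce and H19. Capitals mark matches, on either strand, to TGCCGC (the methylated motif bound by Zfp57), GGGGCCCC (a palindrome bound by Plagl1), GGGCGG (the GC box) and TATAAA (the TATA box). A further motif searched, GCCATNTT (bound by Yy1), was not found in any member's window. Where motifs overlap, the capitals run together.

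Meg3, chr12:109540746-109541045, plus strand: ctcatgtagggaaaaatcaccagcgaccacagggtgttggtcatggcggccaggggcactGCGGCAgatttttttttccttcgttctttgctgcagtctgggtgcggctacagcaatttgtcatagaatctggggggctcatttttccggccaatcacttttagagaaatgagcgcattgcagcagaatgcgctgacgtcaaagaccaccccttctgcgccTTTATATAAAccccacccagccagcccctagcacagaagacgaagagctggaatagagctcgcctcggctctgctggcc

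Dlk1, chr12:109452573-109452872, plus strand: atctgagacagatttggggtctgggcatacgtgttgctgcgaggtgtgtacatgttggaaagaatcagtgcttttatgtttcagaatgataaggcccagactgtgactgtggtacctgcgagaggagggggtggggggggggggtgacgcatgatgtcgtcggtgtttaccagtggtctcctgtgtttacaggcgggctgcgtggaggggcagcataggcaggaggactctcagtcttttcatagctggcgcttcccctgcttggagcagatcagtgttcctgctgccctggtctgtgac

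Peg3, chr7:6730370-6730669, minus strand: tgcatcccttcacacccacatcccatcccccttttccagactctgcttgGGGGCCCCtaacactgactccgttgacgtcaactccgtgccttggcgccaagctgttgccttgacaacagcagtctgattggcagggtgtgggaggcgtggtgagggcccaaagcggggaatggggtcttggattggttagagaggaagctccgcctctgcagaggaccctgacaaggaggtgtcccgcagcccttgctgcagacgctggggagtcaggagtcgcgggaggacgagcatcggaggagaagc

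Plagl1, chr10:13090582-13090881, plus strand: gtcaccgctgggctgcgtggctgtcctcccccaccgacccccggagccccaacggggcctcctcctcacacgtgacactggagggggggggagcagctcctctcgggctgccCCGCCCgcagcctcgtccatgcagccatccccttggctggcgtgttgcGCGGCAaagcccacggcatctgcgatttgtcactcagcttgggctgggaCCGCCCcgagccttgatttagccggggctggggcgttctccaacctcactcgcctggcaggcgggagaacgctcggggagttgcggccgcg

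The printed Meg3 window held TGCCGC on 1 occasion, a motif found in 11.6% of 32851 promoter windows, and overlapping TATAAA matches, found in 13.6%. The Plagl1 window held 1 TGCCGC and 2 GGGCGG, the latter found in 35.7% of windows. The Peg3 window held the GGGGCCCC palindrome, which 1.08% of windows hold. None of the 4 motifs was in the Dlk1 window. That window begins downstream of the start of the Dlk1 row (109452485), so it belongs to an internal start site. CpG dinucleotides numbered 13 in the printed Meg3 window, 9 in Dlk1, 13 in Peg3 and 26 in Plagl1, against a median of 7 over all windows. Another RefSeq window of Meg3 (chr12:109545148-109545447, not printed) held 1 CpG and none of the 4 motifs. The Grb10 window with the most held 45. These matches are letters in a window and were not tested as binding sites.

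The members covered a wide range of levels. H19, a noncoding RNA, was the most abundant at 8703 ± 362 TPM in control (SD, n = 4), followed by Mest (4124 ± 295), Grb10 (848 ± 13.2), Plagl1 (442 ± 26.2), Peg3 (185 ± 12.2), Meg3 (171 ± 22.3), Ndn (123 ± 6.54), Dlk1 (50.5 ± 17.6), Sgce (43.3 ± 5.18) and Phlda2 (0.972 ± 0.167). In this order Peg3 and Meg3 overlapped over the control libraries, as did Dlk1 and Sgce. In cKO Meg3 (265 ± 28.8 TPM) stood above Peg3 (225 ± 8.14 TPM). The 10 genes together made up between 1.42% and 1.501% of TPM in every library.

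**Figure D1:**
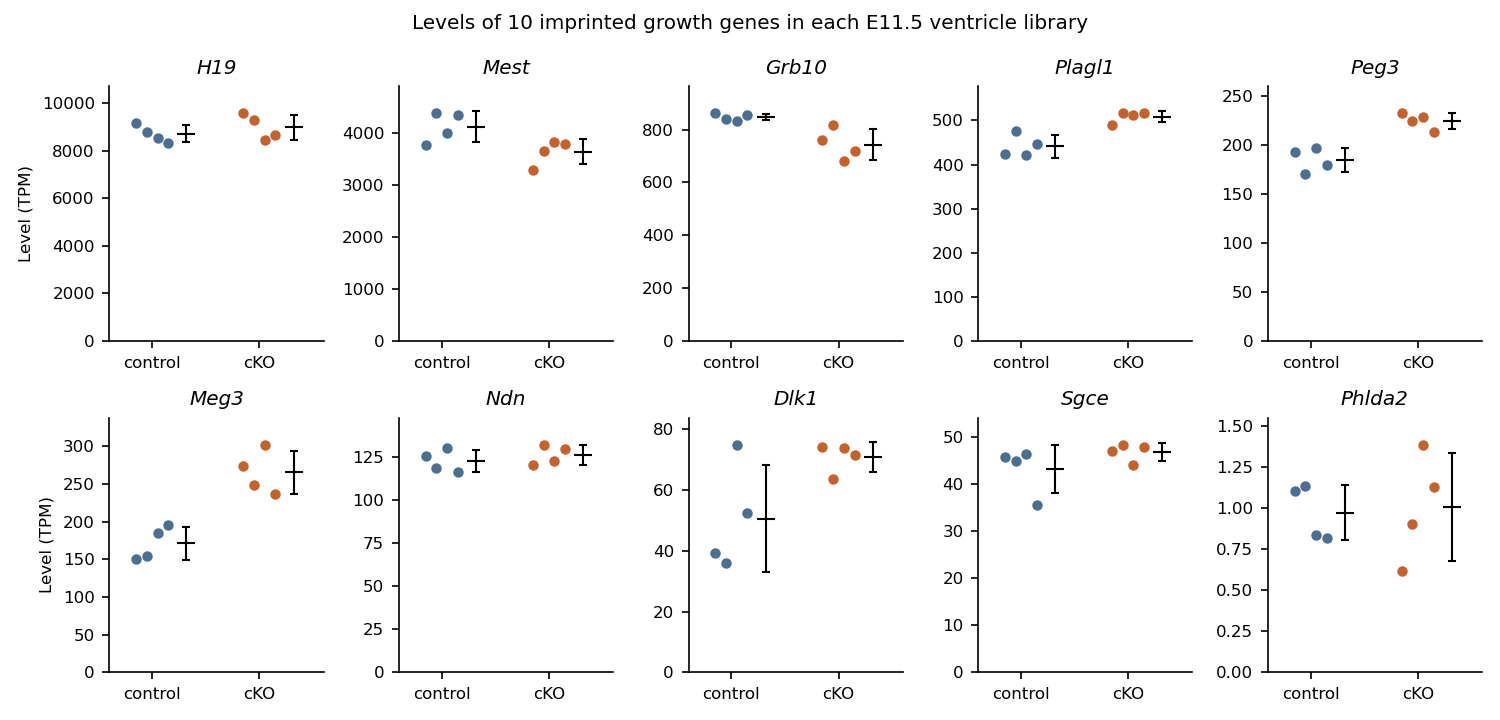
Level of each of the 10 imprinted growth genes in TPM (y axis, linear and starting at 0, a separate scale for each gene) in 4 control and 4 cKO libraries; points are libraries, in replicate order from left to right, and bars show the mean ± SD. The groups do not overlap for Grb10, Plagl1, Peg3 and Meg3, and 1 of the control points of Dlk1 lies at 74.8 TPM, above all cKO points.

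Among the 9 members that passed the level filter, 3 rose in cKO and 0 fell by limma's test. Those that rose were Meg3, Peg3 and Plagl1. Over all tested rows 2.16% were called higher and 4.23% lower. Groups did not overlap for 4 of the 9, the 3 called genes above and Grb10 below, where 15.6% of all tested rows do not overlap, 5.33% with cKO above and 10.3% with cKO below. The median difference over the 9 members was 0.12 on the log2 scale, and it was -0.02 over all tested rows. Phlda2 did not pass the filter and is described from its values. In bulk tissue, a change in the share of cells that express a gene and a change in RNA per cell cannot be told apart.

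Meg3, a maternally expressed long noncoding RNA with growth-restraining activity in cultured cells, showed the largest difference of the members. It stood at 273, 248, 302 and 237 TPM in cKO libraries 1 to 4 and at 150, 154, 185 and 195 TPM in control libraries 1 to 4. Every cKO library lay above every control library. The mean was 55.0% above control, a log2 difference of 0.63 (SE 0.10004, limma adjusted p = 0.00853). It was called under all 18 alternative settings, with an adjusted p between 0.00693 and 0.0491. The Meg3 row (chr12:109540996-109571729, plus strand) overlaps Rtl1 on the opposite strand, and the use of strand in counting is not given in the sources used here.

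Meg3 lies in the Dlk1-Dio3 domain, where Meg3, Rian and Mirg are noncoding RNAs read from the same strand of the maternal chromosome and Dlk1, Rtl1 and Dio3 are coding genes active on the paternal chromosome. Rian, which hosts small nucleolar RNAs and microRNAs, stood at 173, 162, 162 and 147 TPM in cKO and at 103, 114, 116 and 120 TPM in control. It rose by 0.51 on the log2 scale (SE 0.0631, limma adjusted p = 0.00281). Mirg, a microRNA host, stood at 15.8, 14.2, 16.0 and 12.7 TPM in cKO and at 9.98, 11.3, 11.1 and 10.7 TPM in control. It rose by 0.41 (SE 0.0794, limma adjusted p = 0.0194). The groups did not overlap for either RNA. Mirg lost its call without control replicate 1 and without cKO replicates 1 and 3, with limma adjusted p up to 0.0565. It also lost its call with replicate number added to the fit (limma adjusted p = 0.0509) and with no level filter (0.0603).

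Of the coding genes of the domain, Dlk1 and Rtl1 did not pass the test, and Dio3 lay below the level filter and was not tested. Dlk1, a membrane protein related to Notch ligands that promotes fetal growth, stood at 74.0, 63.5, 73.6 and 71.5 TPM in cKO and at 39.2, 35.8, 74.8 and 52.3 TPM in control. Control replicate 3 lay above all cKO libraries, and the other 3 control libraries below them. The log2 difference was 0.53 (SE 0.189, limma adjusted p = 0.124). Without control replicate 3 it was 0.74 and called (limma adjusted p = 0.0201), the only one of 18 alternatives that called it. Rtl1, a retrotransposon-derived gene, stood at 2.48 ± 0.430 TPM in cKO and 1.67 ± 0.201 TPM in control (SD, n = 4, log2 difference 0.38, limma adjusted p = 0.0837), and its row is antisense to those of Meg3 and Rian. Dio3 was at most 0.163 TPM in any library.

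Within each library the ratio of Meg3 to Dlk1 was 1.89 ± 0.132 on the log2 scale in cKO and 1.79 ± 0.339 in control (SD, n = 4), a difference of 0.10 (exact permutation p = 0.771). Without control replicate 3 the difference was -0.06. The ratio of Meg3 to Rian was 0.71 ± 0.122 in cKO and 0.59 ± 0.124 in control (exact permutation p = 0.257). Neither ratio differed beyond the spread between libraries.

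Of 17 tested rows within 250 kb of Meg3, 7 were called higher and 0 lower, where 2.16% of all tested rows were called higher. The median log2 difference was 0.51. Most of the 17 rows lie inside Rian or Mirg, so the count and the median repeat these hosts. Besides Rian and Mirg, the called rows were 2 microRNAs (Mir485, Mir377) and 3 small RNAs of the domain (AF357426, AF357359, DQ267102). Levels were low for Mir485 (1.90 TPM in cKO, 0.615 TPM in control), Mir377 (2.70 and 1.03 TPM) and AF357426 (3.67 and 1.69 TPM). Mir377 lies inside Mirg and the 3 small RNA rows inside Rian on the same strand, so their reads cannot be told apart from those of the host. RefSeq places the microRNA genes Mir770 and Mir1906-1 in Meg3, 3 microRNA hairpins in Rian and 10 in Mirg. Examples of their mature products, with the seed (bases 2 to 8) in capitals, are shown because these host RNAs are the ones that rose. Their seeds differ. Reads on these rows cannot be told apart from the host RNA, and levels of mature microRNA are not reported.

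mmu-miR-770-5p (Meg3): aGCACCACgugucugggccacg

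mmu-miR-370-3p (Rian): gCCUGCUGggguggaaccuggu

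mmu-miR-410-3p (Mirg): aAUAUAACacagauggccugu

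**Figure D2:**
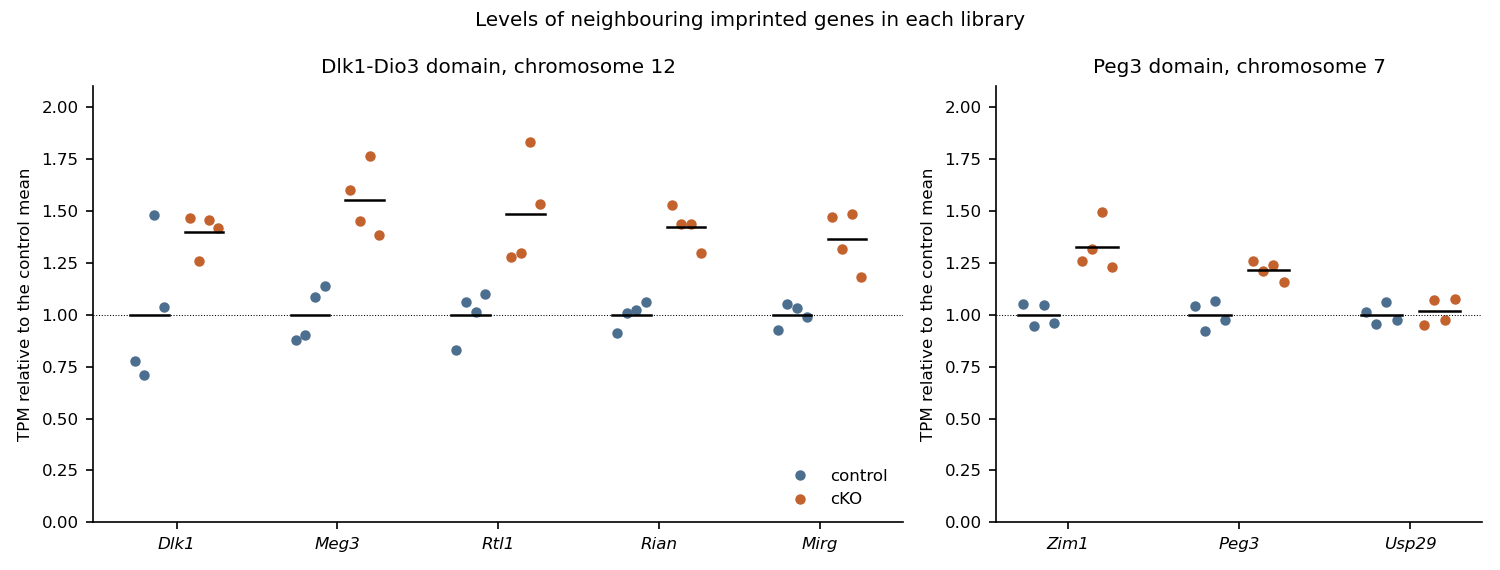
Levels of genes in the Dlk1-Dio3 domain (left) and the Peg3 domain (right), as TPM divided by the mean of the 4 control libraries (y axis, linear from 0); points are libraries and short lines the group means. All cKO points lie above all control points for Meg3, Rtl1, Rian, Mirg, Zim1 and Peg3, but not for Dlk1, whose control replicate 3 is high, or for Usp29.

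Peg3, a zinc finger protein expressed from the paternal allele that takes part in growth and cell death control, stood at 232, 224, 229 and 214 TPM in cKO and at 193, 170, 197 and 180 TPM in control. Every cKO library lay above every control library. It rose by 0.28 on the log2 scale, 21.5% above the control mean (SE 0.0553, limma adjusted p = 0.0202). The call was lost without cKO replicate 1 (limma adjusted p = 0.0571), cKO replicate 3 (0.0517) or control replicate 4 (0.0501), and with no level filter (0.0576). Its row (chr7:6703892-6730462, minus strand) overlaps the antisense gene Peg3os.

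The Peg3 domain holds genes of both parental origins. Zim1, a zinc finger gene expressed from the maternal allele, stood at 38.2, 40.0, 45.4 and 37.3 TPM in cKO and at 31.9, 28.7, 31.8 and 29.2 TPM in control. It rose by 0.39 (SE 0.0690, limma adjusted p = 0.0128) and was called under all 18 alternatives. Usp29, a paternally expressed gene that starts inside the Peg3 promoter window printed above and is read in the opposite direction, stood at 14.3 ± 0.910 TPM in cKO and 14.1 ± 0.669 TPM in control (SD, n = 4, log2 difference 0.02, limma adjusted p = 0.872). The log2 ratio of Peg3 to Usp29 was 3.88 ± 0.134 in cKO and 3.62 ± 0.0403 in control, without overlap (exact permutation p = 0.0286, the smallest this design can give). Adjusted over the 7 pairs compared it was 0.200. The ratio was higher in each of the 4 cKO libraries than in any control library. A single pair at the smallest possible p cannot pass the correction over 7 pairs, so the adjusted value does not decide whether this ratio differs.

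Plagl1, the paternally expressed transcription factor of the network, stood at 491, 516, 513 and 516 TPM in cKO and at 423, 477, 421 and 446 TPM in control. The groups did not overlap, although cKO replicate 1 lay within 14 TPM of control replicate 2. It rose by 0.21 on the log2 scale, 15.2% above the control mean (SE 0.0519, limma adjusted p = 0.0449). This call stood close to the threshold and was lost in 10 of 18 alternatives. It was lost without any 1 of cKO replicates 1 to 4 or control replicates 1, 3 and 4 (limma adjusted p from 0.0718 to 0.128). The call was also lost without the mean-variance trend (limma adjusted p = 0.0777), with no level filter (0.102) and with replicate number in the fit (0.0818). Hymai, a transcript overlapping the Plagl1 start on the same strand, stood at 3.13 TPM in cKO and 2.49 TPM in control (limma adjusted p = 0.241).

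Mest, an enzyme of the hydrolase fold family that promotes growth, stood at 3299, 3655, 3830 and 3783 TPM in cKO and at 3770, 4381, 3992 and 4353 TPM in control. The groups overlapped through control replicate 1. The log2 difference was -0.18 (SE 0.0772, limma adjusted p = 0.194), and it was called lower only after quantile normalization (limma adjusted p = 0.0380). The log2 ratio of Mest to its neighbour Copg2 was 5.37 ± 0.107 in cKO and 5.56 ± 0.0978 in control (exact permutation p = 0.0571, adjusted 0.200).

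Grb10, an adaptor protein that binds the insulin and insulin-like growth factor receptors and limits their signal, stood at 759, 817, 679 and 718 TPM in cKO and at 862, 840, 833 and 856 TPM in control. Every cKO library lay below every control library, and the cKO libraries spread more widely. The log2 difference was -0.19 (SE 0.0604), which did not pass the threshold (limma adjusted p = 0.0885). Without cKO replicate 2 it was -0.24 and called (limma adjusted p = 0.0472). Its neighbour Ddc, which has an imprinted form in the embryonic heart, stood at 52.0 ± 3.98 TPM in cKO and 52.9 ± 5.04 TPM in control (SD, n = 4, limma adjusted p = 0.885).

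H19, the most abundant member, stood at 9564, 9282, 8439 and 8647 TPM in cKO and at 9168, 8785, 8530 and 8328 TPM in control, and the groups overlapped. The log2 difference was 0.04 (SE 0.0765, limma adjusted p = 0.769), and it turned to -0.06 after quantile normalization. Igf2, the growth factor gene that shares enhancers with H19, stood at 3668 ± 97.4 TPM in cKO and 3408 ± 150 TPM in control (SD, n = 4, log2 difference 0.11, limma adjusted p = 0.321). The log2 ratio of H19 to Igf2 was 1.29 ± 0.117 in cKO and 1.35 ± 0.0957 in control (exact permutation p = 0.457). The microRNA row Mir675 stood at 95.5 ± 14.5 TPM in cKO and 69.8 ± 12.7 TPM in control (log2 difference 0.45, limma adjusted p = 0.0793). It lies inside H19 on the same strand, so its reads cannot be told apart from those of the host.

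Ndn, Sgce and Phlda2 had overlapping groups and small differences. Ndn, a MAGE family protein that restrains the cell cycle in neurons, stood at 126 ± 5.65 TPM in cKO and 123 ± 6.54 TPM in control (SD, n = 4, log2 difference 0.04, limma adjusted p = 0.698). Sgce, the epsilon subunit of sarcoglycan, stood at 46.9 ± 1.94 and 43.3 ± 5.18 TPM (log2 difference 0.12, limma adjusted p = 0.420), with control replicate 4 low at 35.5 TPM. Its head-to-head neighbour Peg10 stood at 40.3 ± 1.31 and 36.3 ± 4.47 TPM (limma adjusted p = 0.271). The log2 ratio of Sgce to Peg10 differed by -0.03 (exact permutation p = 0.857). Phlda2, which limits placental growth, ranged from 0.616 to 1.38 TPM in cKO and from 0.817 to 1.13 TPM in control. In the fit without a level filter its log2 difference was 0.01 (SE 0.131, limma adjusted p = 0.978).

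**Figure D3:**
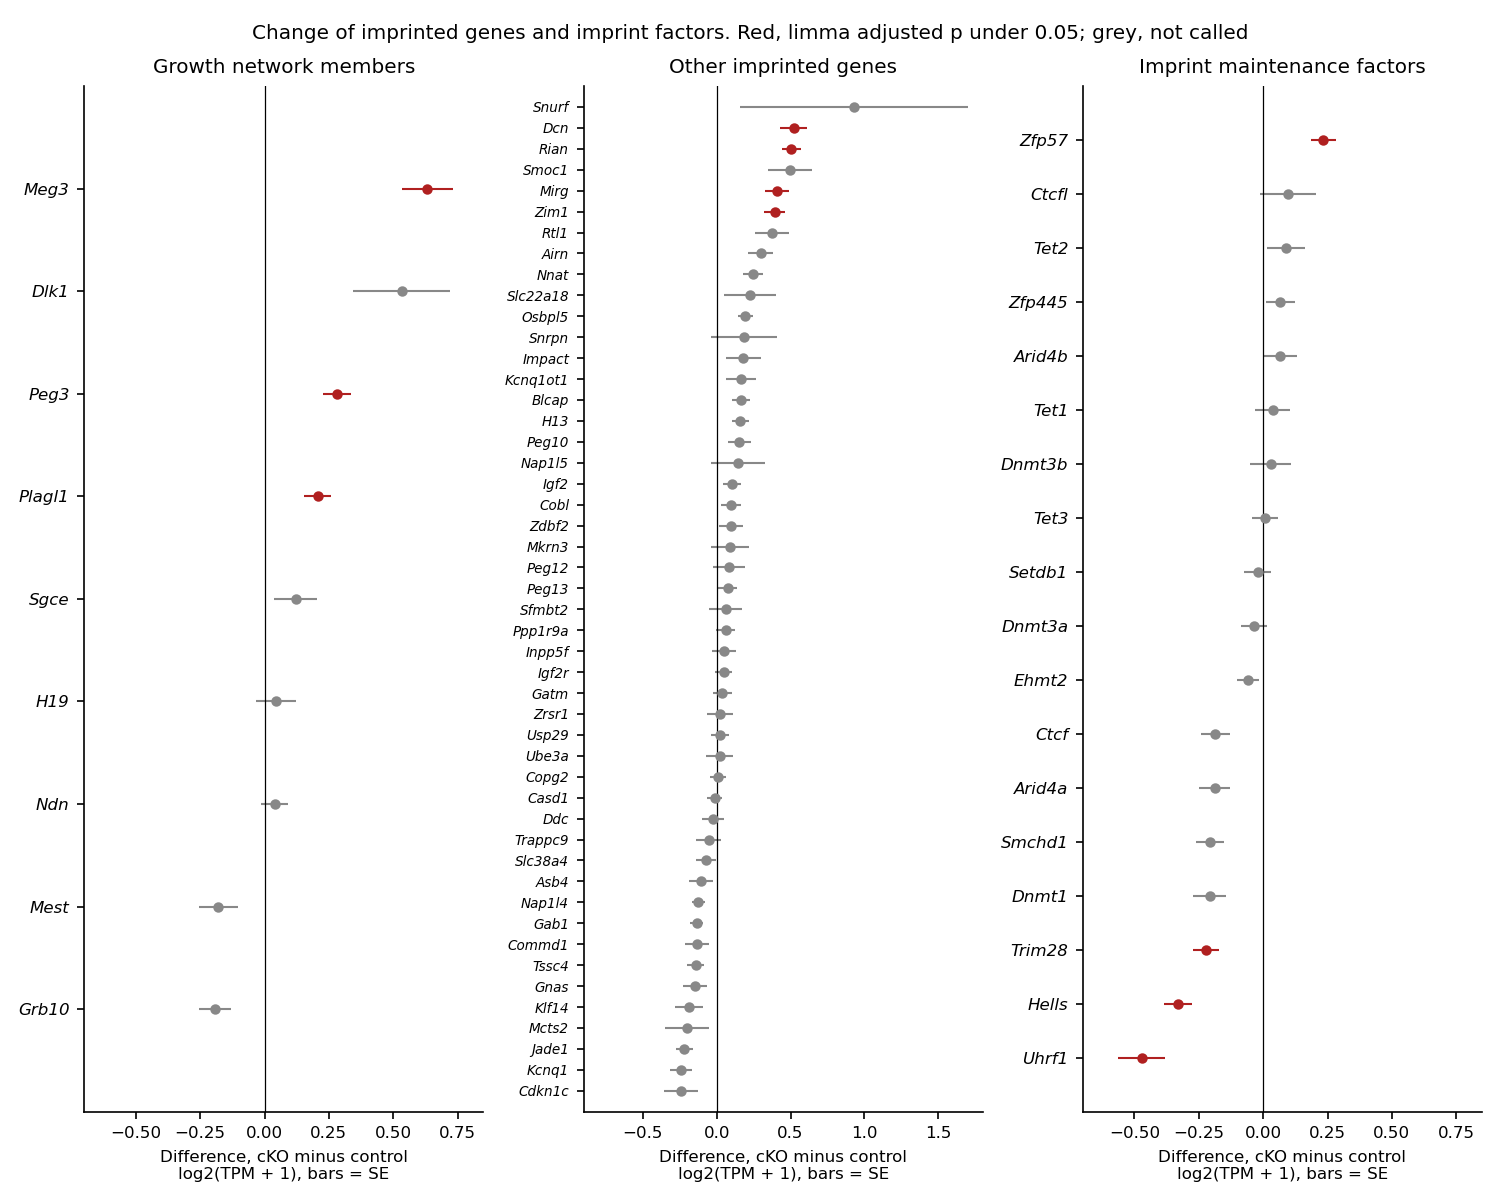
Difference between cKO and control on the log2(TPM + 1) scale (x axis, points with SE from limma, a wider scale in the middle panel) for the tested members, other imprinted genes and imprint maintenance factors; red points have an adjusted p under 0.05. Among members Meg3, Peg3 and Plagl1 are red and to the right, and 4 of the 48 other imprinted genes are red, all to the right.

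Windows of 250 kb around the other members were examined in the same way, where limma called 2.16% of all tested rows higher and 4.23% lower. The window of Dlk1 overlaps that of Meg3, and 5 of its 13 tested rows were called higher, Meg3 and Rian among them. Near Peg3, Zim1 was called higher, 1 of 2 rows. None of 6 tested rows near Plagl1, 9 near Mest, 3 near Ndn or 11 near Phlda2 passed. Of 12 rows near H19, Ctsd, a lysosomal protease, rose and Tnni2, a troponin subunit of fast skeletal muscle, fell. Near Sgce the collagen gene Col1a2 was called higher, 1 of 4 rows, and near Grb10 Fignl1 was called lower, 1 of 4 rows.

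A wider list of 58 other imprinted genes was examined beside the members. Of these 56 were in the table and 48 tested. Limma called 4 higher and 0 lower, where 2.16% of all tested rows were called higher and 4.23% lower. Of the 48, 16 had an unadjusted p under 0.05 by limma, as did 3687 of all 15541 tested rows. The median log2 difference was 0.07. Those that rose were Rian, Mirg and Zim1, described above, and Dcn. Dcn encodes the matrix proteoglycan decorin, is imprinted in the placenta and marks connective tissue cells. It stood at 62.5 ± 8.25 TPM in cKO and 43.1 ± 3.15 TPM in control (SD, n = 4, log2 difference 0.52, limma adjusted p = 0.0122). Cdkn1c, a cell cycle inhibitor beside Phlda2, stood at 1846 ± 256 TPM in cKO and 2180 ± 282 TPM in control (log2 difference -0.24, limma adjusted p = 0.240), with overlapping groups. The receptor gene Igf2r differed by 0.05 (limma adjusted p = 0.688), while Airn, the RNA antisense to it, differed by 0.30 (limma adjusted p = 0.0646).

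Proteins that keep or read imprints formed a second list of 22 genes, of which 18 were tested. Limma called 1 higher and 3 lower, where 2.16% of all tested rows were called higher and 4.23% lower. Zfp57, a zinc finger protein that binds methylated imprint control regions, rose from 43.8 ± 1.19 TPM in control to 51.7 ± 2.36 TPM in cKO (SD, n = 4, log2 difference 0.23, limma adjusted p = 0.0236). Trim28, its corepressor partner, fell from 262 ± 11.9 to 224 ± 8.90 TPM (log2 difference -0.22, limma adjusted p = 0.0310). Uhrf1, which brings the maintenance methyltransferase to replicating DNA, fell from 109 ± 4.35 to 79.1 ± 10.7 TPM (log2 difference -0.47, limma adjusted p = 0.0179). Hells, a chromatin remodeller of dividing cells, fell from 35.4 ± 0.459 to 28.0 ± 1.75 TPM (log2 difference -0.33, limma adjusted p = 0.00915). Dnmt1 (log2 difference -0.21, limma adjusted p = 0.0782) and Ctcf (-0.19, limma adjusted p = 0.0877) were not called.

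With single libraries left out, between 1 and 4 factors of the list were called. Without control replicate 1 or control replicate 3, Hells alone was called. Zfp57 lost its call without cKO replicates 1, 2 or 3 and without control replicates 1, 2 or 3, Trim28 without cKO replicates 1 or 3 and control replicates 1, 3 or 4, and Uhrf1 without control replicates 1 or 3. Uhrf1 and Hells are expressed mainly in dividing cells. Of 22 cell cycle genes 18 were called lower and 0 higher, where 4.23% of all tested rows were called lower and 2.16% higher. Their summed level ran from 1507 to 1775 TPM in cKO and from 2063 to 2252 TPM in control. Whether this difference has a part in the levels of Uhrf1 and Hells was not tested.

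Most tested markers of mesenchymal (19 of 20), epicardial (15 of 17) and endocardial and endothelial cells (15 of 18) had a positive difference. Meg3, Rian, Mirg, Zim1, Peg3, Plagl1 and Dcn rose too, but are named here because they were called higher. Mest (-0.18), Grb10 (-0.19) and Cdkn1c (-0.24) had negative differences and were not called, and H19 and Ndn each differed by 0.04. For the counts below, 2.16% of all tested rows were called higher and 4.23% lower. Of 20 mesenchymal markers 6 were called higher and 0 lower, with a median log2 difference of 0.41, and their summed level ran from 2554 to 2997 TPM in cKO and from 1864 to 2270 TPM in control. Of 18 epicardial markers 17 were tested, 7 were called higher and 0 lower, with a median log2 difference of 0.36. Their sum ran from 601 to 730 TPM in cKO and from 524 to 583 TPM in control. Of the tested epicardial markers 2 had a negative difference, the lowest -0.47, and for 1 of these the groups did not overlap. None of the markers in either list was at 0 in all libraries. Of the mesenchymal markers 1 had a negative difference, -0.20. Among the called markers, Col3a1, a fibrillar collagen, differed by 0.40 (limma adjusted p = 0.00459). Tcf21, a factor of epicardium and fibroblast precursors, differed by 0.52 (limma adjusted p = 0.0121). Both were picked after their values were seen. Among 26 cardiomyocyte markers 1 was called higher and 2 lower, and their sum ran from 63441 to 66701 TPM in cKO and from 63534 to 68976 TPM in control. Of 18 endocardial and endothelial markers 0 were called by limma, with 6 at an unadjusted p under 0.05. Of 12 tested erythroid markers 1 was called lower, 11 had a negative difference and the median was -0.38, while their sum ran from 1856 to 3930 TPM in cKO and from 2069 to 7470 TPM in control. Of 10 tested macrophage markers 0 were called by limma, with 1 at an unadjusted p under 0.05, and 9 had a positive difference, with a median of 0.37. Their sum ran from 79.8 to 135 TPM in cKO and from 75.9 to 107 TPM in control. Whether these cell types have a part in the levels of the imprinted genes was not tested.

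**Figure D4:**
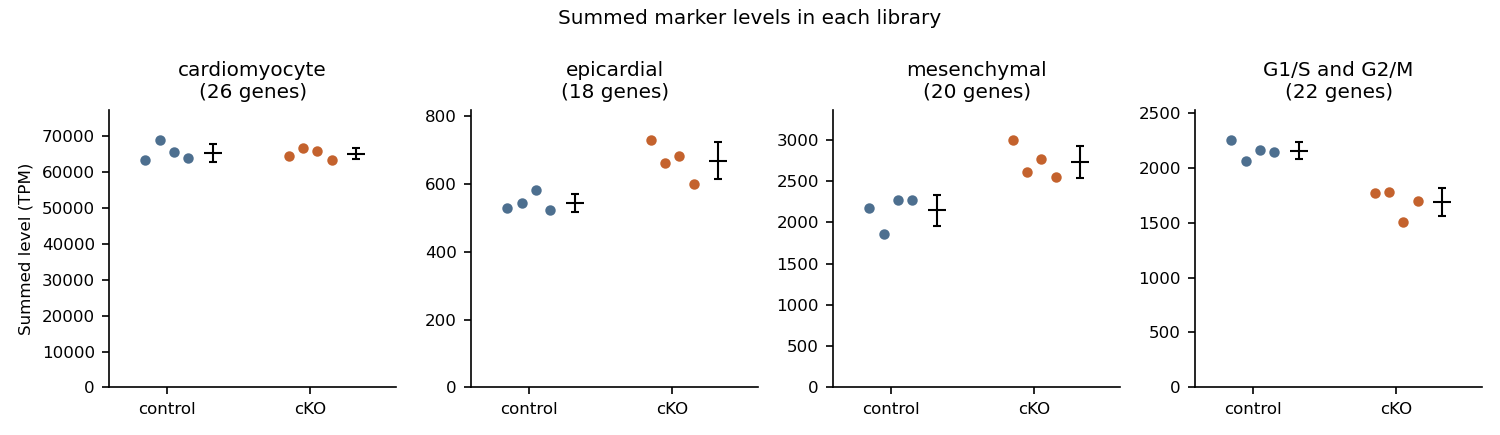
Summed TPM of cardiomyocyte, epicardial, mesenchymal and cell cycle genes (y axis, linear from 0, a separate scale for each list) in 4 control and 4 cKO libraries; points are libraries and bars the mean ± SD. The cKO points lie above the control points for epicardial and mesenchymal genes, below them for cell cycle genes, and overlap for cardiomyocyte genes.

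Genes whose levels varied most like Meg3 were sought by the Pearson correlation over the 8 libraries after each group's mean was removed. The closest of 12784 genes were Gnb3 (r = 0.991), Piezo1 (r = 0.975) and Tnxb (r = 0.975). None of these 3 was called between groups by limma, with adjusted p of 0.640, 0.228 and 0.357. Genes of its own domain ranked lower, with Rian at r = 0.713 (rank 1008), Dlk1 at 0.673 (rank 1255), Mirg at 0.612 (rank 1683) and Rtl1 at 0.543 (rank 2191). These values rank many genes over few libraries that share their preparation, and are given as a description.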

How the data were processed

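RNA sequencing of 4 cKO and 4 control ventricle samples was analysed from 1 table of TPM values that the authors deposited. Per the submitters' processing notes, FastQC, Trim Galore 0.6.7, HISAT2 2.2.1, StringTie 2.2.1, featureCounts and DESeq2 were used with GRCm38; which of them made the TPM, and whether strand was used, is not given in the sources used here. Each column summed to 1000000 within rounding. Coordinates were compared with RefSeq's GRCm38.p6: 49592 of 49593 matched rows were placed identically, and so were all 10 members. Rows of the same symbols on patch scaffolds (Dlk1, Meg3, Rian, Rtl1, Airn, Zfp57) were at 0.

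Groups and replicate numbers came from the sample titles. Values were taken as log2(TPM + 1), rows averaging 1 TPM or more were fitted with limma 3.58.1 (R 4.3.3, eBayes with a mean-variance trend, group as the only term). Tests were two-sided, with Benjamini-Hochberg adjustment over 15541 rows. Because of the added 1, fitted differences understate changes of low genes. Ratios within pairs of neighbours used an exact two-sided permutation test over 70 assignments, adjusted over 7 pairs; pairs with Phlda2 or Magel2 were left out because these lay below 1 TPM on average. The procedure was tested on simulated data.

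The members, lists and tests were chosen with earlier results of these data known. Named genes are the members, called genes of the 2 imprinting lists, Igf2, Cdkn1c, the partners in pairs and the 3 genes most like the member with the smallest p; Rtl1, Dio3, Hymai, Mir675, Igf2r, Airn, Dnmt1, Ctcf, Col3a1, Tcf21, Snurf, Snrpn, Nnat, Kcnq1, Osbpl5, Jade1 and called neighbours of members were added after their values were seen. Alternatives are given in the closing section. Same-numbered libraries did not deviate together (correlations of -0.09 to 0.07). TPM keeps no depth, so precision is that between libraries.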

Additional observations from a re-analysis of the deposited data

Results flagged for a closer look

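Among 50 groups of 4 libraries examined for the members and named genes, 2 held a library far from the other 3, by a rule that chance meets in about 1 in 20 groups. Plagl1 was low in cKO replicate 1, at 491 TPM where the nearest other cKO library had 513 TPM. Sgce was low in control replicate 4, at 35.5 TPM where the nearest other control library had 45.1 TPM.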

How the results depend on the processing

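Meg3, Rian, Zim1, Hells and Rps19bp1 kept their direction and their call under all 18 alternatives. Peg3, Plagl1, Mirg, Dcn, Zfp57, Trim28 and Uhrf1 kept their direction under them but lost their call in at least 1. The 994 called genes became 609 without a variance trend, 347 with no filter on low values and 420 with the replicate block, and 388 to 936 when libraries were left out in turn. The 3 called members became 1 with no filter and 1 to 3 with a library left out; under the replicate block 2 were called, and Plagl1 was not (limma adjusted p = 0.0818). The 4 other imprinted genes became 7 with a mean TPM of at least 5, where Osbpl5, Nnat and, lower, Jade1 were added, and 2 with no filter, and 3 to 6 with a library left out. The 4 imprint maintenance factors became 2 with no filter, 2 with the replicate block and 1 to 4 with a library left out. The cause of these shifts was not tested. More rows were tested without a filter (32491), and fewer libraries entered the fits with a library left out. Same-numbered libraries correlated at -0.0891 to 0.0674 after removal of group means, and not every library correlated best with its own number, so the numbers are not taken to pair the libraries.

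Small uncalled differences changed sign. H19 was -0.0618 after quantile normalization. With 1 library left out at a time, Usp29 ranged from -0.00445 (cKO replicate 4; -0.000983 for cKO replicate 2) to 0.0516. Copg2 ranged from -0.0249 (control replicate 3) to 0.0395, and Ddc from -0.0656 to 0.0295 (control replicate 4). Ddc was 0.00331 with median-ratio scaling, 0.0294 after quantile normalization and 0.0112 when rescaled without mitochondrial, globin and ribosomal RNA rows. The log2 ratio of Meg3 to Dlk1 ranged from -0.0644 (control replicate 3) to 0.195, and that of Sgce to Peg10 from -0.128 to 0.0544 (control replicate 2). The count of 0 neighbour pairs past an adjusted p of 0.05 says nothing of stability with a library left out, since the exact permutation test then cannot go below 0.0571.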

Other observations

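The row of Snurf lies within that of Snrpn on the same strand, so their reads cannot be told apart, and both varied between libraries. Snurf stood at 0.686, 0.952, 22.6 and 13.8 TPM in cKO libraries 1 to 4 and at 3.27, 2.07, 1.32 and 1.88 TPM in control libraries 1 to 4. Snrpn stood at 8.02, 9.67, 16.2 and 14.2 TPM in cKO and at 14.9, 9.92, 8.80 and 7.87 TPM in control. The difference was not past the threshold for either gene (limma adjusted p = 0.512 and 0.671), and cKO replicates 3 and 4 alone were high for Snurf.

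Several imprinted genes had groups that did not overlap without passing limma's threshold. Airn stood at 103, 106, 134 and 106 TPM in cKO and at 86.9, 90.7, 87.4 and 98.5 TPM in control. Nnat, a small membrane protein, stood at 129 ± 8.52 TPM in cKO and 109 ± 8.20 TPM in control (SD, n = 4, limma adjusted p = 0.0567). Kcnq1, a potassium channel gene in the domain of Cdkn1c, stood at 9.54 ± 0.877 TPM in cKO and 11.4 ± 0.623 TPM in control (limma adjusted p = 0.0890). Of the 48 tested imprinted genes outside the members, 13 had groups without overlap, 8 higher and 5 lower. Over all tested rows 15.6% do, 5.33% higher and 10.3% lower.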
